A study of Mus musculus with 23 samples.

Results

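The T cell genes described here are Cd3d, Cd3e, Cd3g, Cd4, Cd8a, Cd8b1, Cd5, Cd2, Lck and Foxp3, picked by gene symbol from a table of 24062 genes, in which all 10 were found. They were followed across fat (labelled IAT) and gastrocnemius muscle of BubR1 mutant mice. BubR1, encoded by Bub1b, is a mitotic checkpoint protein, and mice with little of it age early. HL1002P mice carry the hypomorphic H allele and a missense allele, L1002P (BubR1 H/L1002P); HH mice carry 2 copies of the H allele (BubR1 H/H); WT mice carry neither. All were of a 129Sve/C57BL/6 mixed background and 8 to 10 months old, and the labels name no driver that would limit the alleles to 1 cell type. Fat gave 4 HL1002P, 4 HH and 4 WT libraries, and muscle gave 4 HL1002P, 3 HH and 4 WT libraries, of polyadenylated RNA from whole tissue. The labels do not say that each library is a separate mouse, so p-values measure only the spread between these libraries.

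T cells recognise antigen through the T cell receptor, which signals through the CD3 chains encoded by Cd3d, Cd3e and Cd3g. The co-receptor CD4 marks helper and regulatory cells, and CD8, a pair of the chains encoded by Cd8a and Cd8b1, marks cytotoxic cells. Lck is the kinase bound to both co-receptors, CD2 is an adhesion and co-stimulatory receptor, and CD5 dampens receptor signalling. Foxp3 is the transcription factor that defines regulatory T cells, a population known in mouse fat. Several are not private to T cells: NK cells carry Cd2, some dendritic cells carry Cd4 or Cd8a, and some B cells carry Cd5.

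The 3 CD3 genes lie side by side on chromosome 9. On GRCm38 (RefSeq annotation) Cd3g spans 44969572 to 44980431 on the minus strand, Cd3d spans 44981769 to 44987052 on the plus strand, and Cd3e spans 44998735 to 45009663 on the minus strand. The Cd3g and Cd3d genes are 1337 bases apart and point away from each other, and 11682 bases separate the ends of Cd3d and Cd3e. Cd8b1 (71322788 to 71337492) and Cd8a (71373427 to 71379171) are 35934 bases apart on chromosome 6, which also holds Cd4 (124864693 to 124888247). Cd5 is on chromosome 19 (10718107 to 10739026), Cd2 on chromosome 3 (101275908 to 101287939), Lck on chromosome 4 (129548344 to 129573641) and Foxp3 on chromosome X (7579676 to 7595243). Of 4100 exon bases of Foxp3, 590 are shared with Ccdc22 and 373 with Gm36995 on the other strand and 376 with Flicr on the same strand. Exons of Cd3e share 135 bases with Gm48719 on the other strand, and exons of Lck share 25 bases with Mir8119. The libraries do not keep the strand, so reads in those stretches cannot be assigned to 1 gene, and the counts of Foxp3, Cd3e and, over few bases, Lck carry that uncertainty.

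Promoters of the CD3 genes and of Lck are shown because these 4 genes serve the same receptor and their levels are compared below; they come from the RefSeq table of GRCm38.p6, which held 7 of the 10 genes and 9 promoters. Each runs 5′ to 3′ on the gene's strand over 300 bases around the start site. Capitals mark matches on either strand. The letters searched were TGTGGT for Runx factors. For TCF-1 and LEF-1 they were CTTTGA. For GATA factors they were AGATAA, and the 3 motifs share no overlapping match here.
Cd3g, chr9:44980382-44980681, minus strand: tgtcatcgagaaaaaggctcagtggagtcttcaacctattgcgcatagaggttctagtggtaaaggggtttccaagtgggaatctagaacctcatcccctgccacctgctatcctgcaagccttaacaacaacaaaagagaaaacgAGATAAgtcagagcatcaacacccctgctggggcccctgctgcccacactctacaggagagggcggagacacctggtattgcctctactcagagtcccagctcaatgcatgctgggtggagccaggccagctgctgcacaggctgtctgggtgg
Cd3d, chr9:44981536-44981835, plus strand: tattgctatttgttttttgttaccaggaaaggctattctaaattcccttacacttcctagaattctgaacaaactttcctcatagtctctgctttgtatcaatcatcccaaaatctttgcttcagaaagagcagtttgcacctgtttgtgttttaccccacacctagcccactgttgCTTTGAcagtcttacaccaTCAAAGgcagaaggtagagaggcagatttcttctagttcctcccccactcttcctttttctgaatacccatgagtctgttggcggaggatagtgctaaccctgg
Cd3e, chr9:45009562-45009861, minus strand: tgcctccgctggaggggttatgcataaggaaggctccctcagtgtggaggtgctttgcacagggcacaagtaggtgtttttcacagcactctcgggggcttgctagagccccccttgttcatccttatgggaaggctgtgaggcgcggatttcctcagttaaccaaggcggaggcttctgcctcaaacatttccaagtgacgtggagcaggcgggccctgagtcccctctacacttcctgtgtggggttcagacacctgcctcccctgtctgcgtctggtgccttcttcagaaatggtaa
Lck, chr4:129573592-129573891, minus strand: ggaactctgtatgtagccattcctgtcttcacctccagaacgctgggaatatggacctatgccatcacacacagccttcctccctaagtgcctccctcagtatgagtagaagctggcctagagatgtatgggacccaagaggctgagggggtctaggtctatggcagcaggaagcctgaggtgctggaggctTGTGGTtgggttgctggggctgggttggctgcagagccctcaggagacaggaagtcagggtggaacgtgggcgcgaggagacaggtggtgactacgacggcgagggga
The Cd3g promoter had 1 GATA match, 104 bases before its start site. The Cd3d promoter had 2 TCF-1/LEF-1 matches, at 73 and 54 bases before the start, and the Lck promoter shown, the upstream one of 2 in the table, had 1 Runx match at 58 bases. The other Lck promoter held none of the 3 motifs, and of the other 4 promoters 1, of Foxp3, held a GATA match. The Cd3e window held none of the 3 motifs. Such matches are common: 16.8% of 32851 promoters in the table held the Runx letters, 16% the TCF-1/LEF-1 letters and 11.2% the GATA letters.

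Library totals were 22.6 to 58.8 M counts in fat and 34.1 to 55.3 M in muscle. Bub1b was at 6.12 to 22.1 CPM (read count scaled to library size) in HL1002P fat, 5.96 to 14.3 CPM in HH fat and 7.08 to 11.6 CPM in WT fat, which overlap, while in muscle it was at 0.181 to 0.273 CPM in HL1002P, 0.326 to 0.520 CPM in HH and 0.726 to 0.952 CPM in WT. Some fat libraries stood apart: WT replicate 1 was lowest in the T cell, B cell and lymph node lists, though not in macrophage or dendritic markers; summed skeletal muscle markers were over 5000 CPM in HL1002P replicate 4, HH replicate 1 and WT replicate 3; and Xist, which marks female tissue, was over 10 CPM in HL1002P replicate 4, HH replicate 4 and WT replicates 3 and 4. The labels give no sex. Mammary epithelium markers, with Wap at 0 in all 12 libraries, summed to 1046 CPM in HL1002P replicate 4, 678 and 441 CPM in HH replicates 2 and 4, and 1630 and 1519 CPM in WT replicates 3 and 4, against 91.9 CPM or less in the others. In whole tissue, a change in the number of T cells and a change in RNA per T cell cannot be told apart.

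All 10 T cell genes rose in HL1002P fat relative to WT fat (edgeR quasi-likelihood test over 16266 genes, Benjamini-Hochberg adjusted p under 0.05), where 17.3% of all genes tested rose. Their log2 fold changes ran from 1.61 to 2.38 with a median of 2.01, beside a median of -0.069 over all genes tested. In HH fat 8 of the 10 rose relative to WT, where 12.3% of all genes rose, with log2 fold changes over all 10 of 0.79 to 2.47 and a median of 1.76, beside -0.056 over all genes. No library of HL1002P fat overlapped the WT range for any of the 10 genes, and 9 of the 10 did not overlap in HH fat; 15.1% and 15% of all genes tested were higher without overlap in those comparisons. Both comparisons use the same 4 WT libraries. Between HL1002P and HH fat no gene passed, and the background was 0%.

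**Figure D1:**
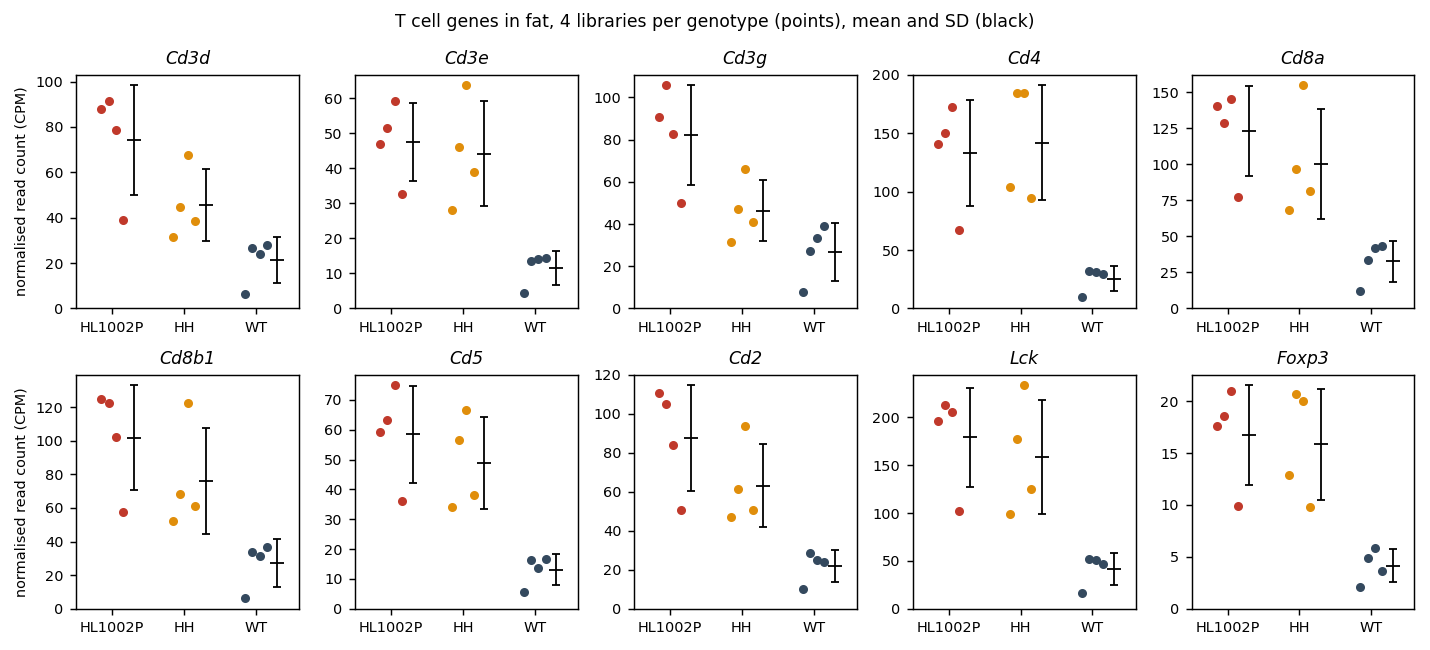
Level of each T cell gene in the 12 fat libraries, in CPM on linear axes that start at 0, with points for HL1002P, HH and WT libraries and the mean and SD of each group in black. HL1002P points lie above all WT points for the 10 genes, and HH points do so for every gene but Cd3g.

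Within the CD3 complex, Cd3e, whose chain is in both CD3 dimers of the receptor, was at 46.9, 51.5, 59.2 and 32.8 CPM in HL1002P fat, 28.1, 46.2, 63.9 and 38.9 CPM in HH fat, and 4.32, 13.5, 14.1 and 14.5 CPM in WT fat. Neither mutant group overlapped WT. The log2 fold change of Cd3e was 2.04 ± 0.37 (SE) in HL1002P fat (adjusted p = 0.00779) and 1.93 ± 0.37 in HH fat (adjusted p = 0.0121). Cd3d, whose chain pairs with that of Cd3e, was at 88.0, 91.6, 78.6 and 38.8 CPM in HL1002P fat, 31.5, 44.7, 67.7 and 38.7 CPM in HH fat, and 6.24, 26.6, 24.0 and 28.1 CPM in WT fat. Every HL1002P library was above every WT library, with a log2 fold change of 1.81 ± 0.44 (adjusted p = 0.0143), whereas the 1.10 ± 0.43 of HH fat missed the threshold (adjusted p = 0.0827) although the groups did not overlap. Cd3g, whose chain is the partner in the other dimer, was at 90.9, 106, 82.5 and 49.9 CPM in HL1002P fat, 31.7, 47.1, 66.0 and 40.8 CPM in HH fat, and 7.61, 27.1, 33.6 and 39.2 CPM in WT fat. It rose in HL1002P fat by 1.61 ± 0.43 (adjusted p = 0.0190), and in HH fat, where replicate 1 lay inside the WT range, the log2 fold change was 0.79 ± 0.42 (adjusted p = 0.181).

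The 3 CD3 genes thus did not keep one proportion across the genotypes. The ratio of Cd3d to Cd3e counts was 1.88, 1.78, 1.33 and 1.18 in HL1002P fat, 1.12, 0.966, 1.06 and 0.996 in HH fat, and 1.44, 1.96, 1.70 and 1.93 in WT fat. All 4 HH libraries lay below all HL1002P and all WT libraries. The ratio of Cd3g to Cd3e was 1.94, 2.05, 1.39 and 1.52 in HL1002P fat, 1.13, 1.02, 1.03 and 1.05 in HH fat, and 1.75, 1.99, 2.38 and 2.69 in WT fat, again lowest in HH. Cd3d and Cd3g, whose start sites face away from each other, stayed close to each other: their ratio was 0.778 to 0.969 in HL1002P, 0.948 to 1.03 in HH and 0.716 to 0.985 in WT. Lck to Cd3e was 3.11 to 4.18 in HL1002P, 3.22 to 3.83 in HH and 3.22 to 3.79 in WT, with no such gap. A lower ratio to Cd3e in HH was not limited to Cd3d and Cd3g. The log2 ratio of Cd2 to Cd3e averaged 0.523 in HH, 0.849 in HL1002P and 0.953 in WT, with overlap between the groups. Cd8a to Cd3e, tested below, was also lower in HH than in WT. These ratios were chosen after the values were seen and have no test. The test of HL1002P against HH fat gave log2 fold changes of 0.70 ± 0.42 for Cd3d (unadjusted p = 0.124) and 0.83 ± 0.42 for Cd3g (unadjusted p = 0.0725), both with an adjusted p of 0.999.

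**Figure D2:**
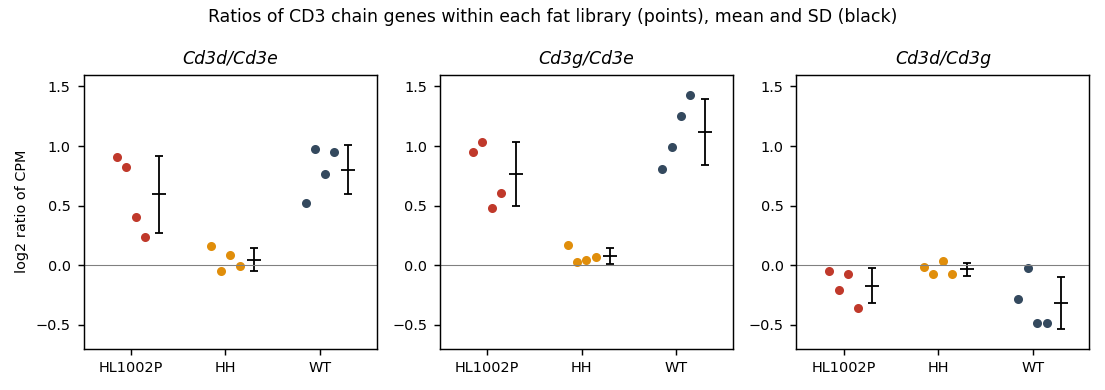
Log2 ratios of CPM of Cd3d to Cd3e, Cd3g to Cd3e and Cd3d to Cd3g in each fat library, with HL1002P, HH and WT libraries as points, the mean and SD of each group in black and a grey line at 0, where the genes are equal. Set against Cd3e, the HH libraries lie near 0 (means 0.048 for Cd3d and 0.080 for Cd3g), below every HL1002P and WT library.

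Among the co-receptors the helper gene Cd4 had the largest log2 fold change of the 10 genes in both mutants. It was at 141, 151, 173 and 67.5 CPM in HL1002P fat, 104, 185, 184 and 94.5 CPM in HH fat, and 9.41, 31.9, 31.5 and 29.4 CPM in WT fat. Every mutant library was far above the highest WT library. Cd4 averaged 133 ± 45.6 CPM in HL1002P fat, 142 ± 49.3 CPM in HH fat and 25.5 ± 10.8 CPM in WT fat (SD, n = 4 each), and its log2 fold change was 2.38 ± 0.42 in HL1002P (5.21-fold, adjusted p = 0.00775) and 2.47 ± 0.42 in HH (5.56-fold, adjusted p = 0.0113). Dendritic cells and macrophages, some of which carry Cd4, moved unevenly beside it: 5 of 8 dendritic markers rose in each mutant and 0 of 9 macrophage markers did, and their part in the Cd4 level was not tested.

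The cytotoxic co-receptor genes had smaller log2 fold changes. Cd8a was at 141, 129, 145 and 77.6 CPM in HL1002P fat, 68.7, 96.8, 155 and 81.5 CPM in HH fat, and 12.2, 33.8, 41.6 and 43.4 CPM in WT fat. The groups did not overlap, and Cd8a had a log2 fold change of 1.91 ± 0.38 in HL1002P fat (adjusted p = 0.00901) and 1.62 ± 0.38 in HH fat (adjusted p = 0.0183). Cd8b1, whose chain is more limited to conventional CD8 T cells, was at 125, 122, 102 and 57.8 CPM in HL1002P fat, 52.5, 68.6, 122 and 60.9 CPM in HH fat, and 6.20, 34.0, 31.4 and 37.0 CPM in WT fat. It too was separate from WT in both mutants. Its log2 fold change was 1.91 ± 0.48 in HL1002P (adjusted p = 0.0167) and 1.49 ± 0.48 in HH (adjusted p = 0.0471). The HH call of Cd8b1 was close to the threshold and was lost in 11 of 17 alternative settings, with log2 fold changes of 1.17 to 2.12 over them.

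Foxp3, the gene of regulatory T cells, was at 17.6, 18.6, 20.9 and 9.86 CPM in HL1002P fat, 12.9, 20.6, 20.03 and 9.81 CPM in HH fat, and 2.12, 4.94, 5.81 and 3.68 CPM in WT fat. All mutant libraries were above all WT libraries. It averaged 16.8 ± 4.80 CPM in HL1002P fat, 15.8 ± 5.34 CPM in HH fat and 4.14 ± 1.6 CPM in WT fat (SD, n = 4 each), with log2 fold changes of 2.02 ± 0.36 (adjusted p = 0.00775) and 1.94 ± 0.36 (adjusted p = 0.0116) for HL1002P and HH. 

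Helper, cytotoxic and regulatory genes were set against each other as ratios within a library, which are free of library scaling, with a 2-sided exact permutation test and adjustment over the 6 ratios of a comparison. The ratio of Cd4 to Cd8a was 1.0, 1.17, 1.19 and 0.871 in HL1002P fat, 1.52, 1.91, 1.19 and 1.16 in HH fat, and 0.773, 0.944, 0.757 and 0.677 in WT fat. All HH libraries were above all WT libraries, and 1 HL1002P library lay inside the WT range. The mean log2 ratio was higher by 0.85 in HH than in WT (exact permutation p = 0.0286, adjusted p = 0.0343) and by 0.42 in HL1002P than in WT (exact permutation p = 0.0571, adjusted p = 0.114). HL1002P and HH differed by -0.43 (exact permutation p = 0.143, adjusted p = 0.286).

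Set against Cd3e, the helper gene was higher and the cytotoxic gene lower in HH fat. For Cd8a this direction depends on the choice of Cd3e among the CD3 genes. Relative to WT, Cd8a in HH fat moved by 1.62 on the log2 scale, less than Cd3e (1.93). Cd3d (1.10) and Cd3g (0.79) moved less than Cd8a, and neither passed edgeR's test. Ratios of Cd8a to Cd3d or to Cd3g were not tested. The log2 ratio of Cd4 to Cd3e averaged 1.67 in HH and 1.13 in WT, and that of Cd8a to Cd3e averaged 1.17 in HH and 1.48 in WT. Both groups were separate, each at an exact permutation p = 0.0286, the smallest that 4 against 4 libraries can give, and an adjusted p = 0.0343. The ratio calls in HH are not independent. Cd4 to Cd8a is Cd4 to Cd3e divided by Cd8a to Cd3e, and Foxp3 to Cd4 uses Cd4 again. With 1 of the 6 ratios alone at that exact permutation p, its adjusted p would be 0.171. In HL1002P fat the same means were 1.43 for Cd4 to Cd3e (exact permutation p = 0.114 against WT) and 1.36 for Cd8a to Cd3e (exact permutation p = 0.343 against WT), neither past the threshold. In HH fat the differences from WT in these log2 ratios were 0.55 and -0.31.

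Foxp3 had a smaller log2 fold change than Cd4 in both mutants. The ratio of Foxp3 to Cd4 was 0.126, 0.124, 0.122 and 0.147 in HL1002P fat, 0.125, 0.112, 0.109 and 0.105 in HH fat, and 0.234, 0.158, 0.187 and 0.128 in WT fat. HH libraries were all below WT libraries, and 1 HL1002P library was inside the WT range. The mean log2 ratio differed by -0.62 between HH and WT (exact permutation p = 0.0286, adjusted p = 0.0343) and by -0.42 between HL1002P and WT (exact permutation p = 0.0571, adjusted p = 0.114). These HH calls rest on few libraries. Without any 1 of the HH libraries, or without WT replicate 1, none of the 4 ratios of helper, cytotoxic and regulatory genes passed (adjusted p = 0.0857 for each without an HH library, and 0.0571 or 0.0686 without WT replicate 1). Without WT replicate 2, 3 or 4, Cd4 to Cd8a, Cd8a to Cd3e and Foxp3 to Cd4 passed (adjusted p = 0.0429) and Cd4 to Cd3e did not (adjusted p = 0.0686).

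**Figure D3:**
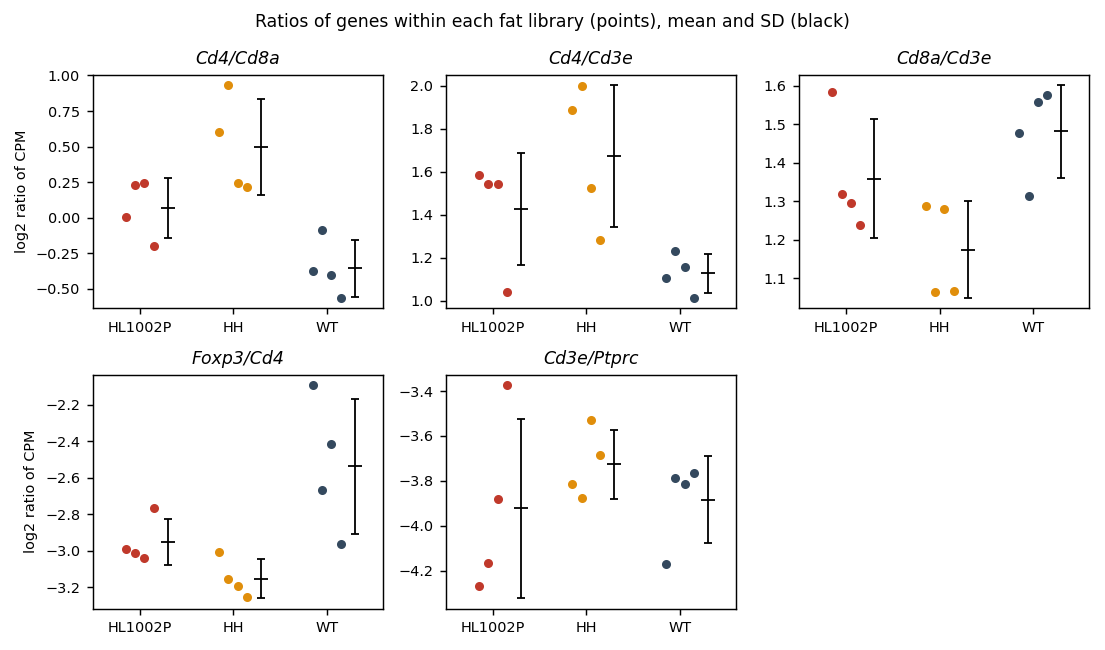
Log2 ratios of CPM within each fat library for 5 gene pairs, with points for HL1002P, HH and WT libraries and the mean and SD of each group in black. For Cd4 to Cd8a and Cd4 to Cd3e all HH points lie above all WT points, and for Cd8a to Cd3e and Foxp3 to Cd4 they lie below.

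Cd5, Cd2 and Lck, which serve every T cell class, rose in both mutants. Lck had the highest mean count of the 10 genes in each genotype, though Cd4 was above it in HH replicates 1 and 2, with 196, 213, 206 and 102 CPM in HL1002P fat, 98.8, 177, 234 and 125 CPM in HH fat, and 16.6, 51.6, 51.0 and 47.0 CPM in WT fat. The groups were far apart, and Lck rose by 2.11 ± 0.39 in HL1002P (adjusted p = 0.00785) and by 1.93 ± 0.39 in HH (adjusted p = 0.0126) on the log2 scale. Cd5 was at 59.2, 63.4, 74.9 and 36.2 CPM in HL1002P fat, 34.1, 56.5, 66.5 and 38.1 CPM in HH fat, and 5.51, 16.5, 13.7 and 16.5 CPM in WT fat. It was separate from WT in both mutants, with log2 fold changes of 2.16 ± 0.36 in HL1002P (adjusted p = 0.00775) and 1.90 ± 0.36 in HH (adjusted p = 0.0116). Cd2 was at 111, 105, 84.0 and 50.8 CPM in HL1002P fat, 47.2, 61.2, 93.7 and 50.9 CPM in HH fat, and 9.98, 28.9, 25.0 and 23.8 CPM in WT fat. It rose by 2.0 ± 0.35 in HL1002P (adjusted p = 0.00775) and by 1.53 ± 0.35 in HH (adjusted p = 0.0166), again without overlap.

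Per kilobase of exon (GENCODE vM21 basic lengths), Cd3g, Lck, Cd2 and Cd8b1 led in HL1002P fat, with means of 80.5, 77.4, 76.0 and 68.7 CPM per kb, an order their SDs do not resolve. In HH fat Lck led with 68.5 CPM per kb, ahead of Cd2 at 54.9, Cd8b1 at 51.3, Cd4 at 45.7 and Cd3g at 45.4. In WT fat Cd3g led with 26.3 CPM per kb, with Cd2 at 19.0, Cd8b1 at 18.3 and Lck at 17.9. Cd4, at 42.8 CPM per kb in HL1002P and 8.22 in WT, moved most in rank, between the second and the eighth place over the 12 libraries. Cd5 was the ninth and Foxp3 the tenth in each of them, with Foxp3 at 4.09 CPM per kb in HL1002P, 3.86 in HH and 1.01 in WT.

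**Figure D4:**
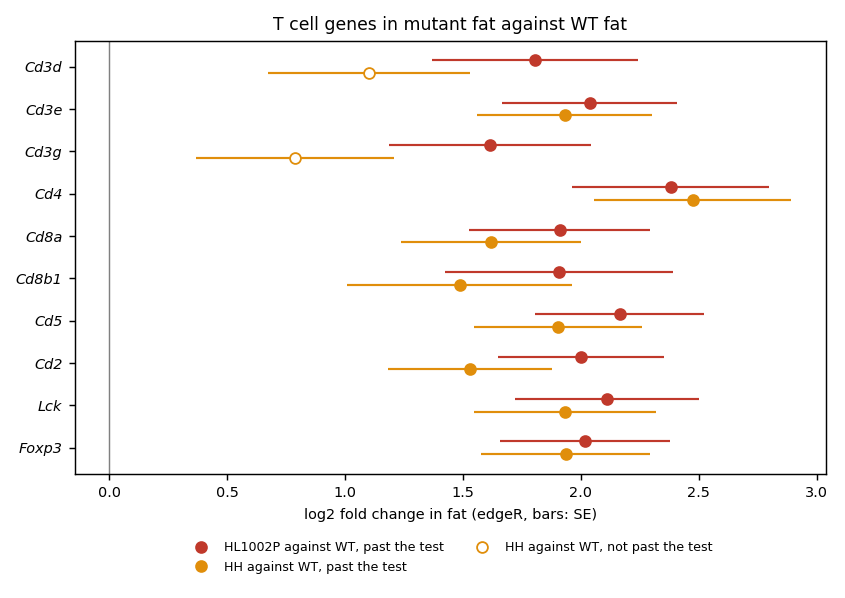
Log2 fold change of each T cell gene in fat, HL1002P and HH against WT, with bars of 1 SE; open points did not pass the test. HL1002P values lie between 1.61 and 2.38, and HH values between 0.79 for Cd3g and 2.47 for Cd4, with Cd3d and Cd3g open in HH.

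The replicates varied together. In HL1002P fat the lowest library for every one of the 10 genes was replicate 4, and in WT fat it was replicate 1. Summed over the 10 genes, the lowest, median and highest library had 523.7, 1021 and 1050 CPM in HL1002P, 509.6, 691.6 and 1073 CPM in HH, and 80.2, 270.2 and 282.6 CPM in WT. Without WT replicate 1 the same number of genes rose in each mutant, 10 and 8, and the log2 fold change of Cd4 was 2.11 in HL1002P and 2.22 in HH. Without HH replicate 3, 5 of the 10 genes rose in HH fat: Cd8a (1.37, adjusted p = 0.0596), Cd8b1 (1.2, adjusted p = 0.138) and Cd2 (1.32, adjusted p = 0.0541) no longer passed.

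The differences were smaller among the libraries with Xist, which hold only 1 library of each mutant. In the libraries with Xist (1 HL1002P, 1 HH, 2 WT), Cd4 was 2.22-fold higher in HL1002P and 3.11-fold higher in HH than in WT, and in those without (3 HL1002P, 3 HH, 2 WT) it was 7.50-fold and 7.64-fold higher. Cd3g was 1.37-fold and 1.12-fold higher with Xist, against 5.37-fold and 2.78-fold without, and the other 8 genes likewise had smaller folds with Xist, of 1.48 or more. The direction was the same in both sets. WT replicate 1 is among the 2 WT libraries without Xist. The 1 HL1002P library with Xist is replicate 4, the lowest of its genotype for each of the 10 genes. It is also high in skeletal muscle and mammary markers. A relation to Xist cannot be told apart from these single libraries. With Xist as a covariate 10 genes rose in HL1002P and 7 in HH, Cd8b1 being the one no longer past the threshold. Without the libraries high in skeletal muscle markers, 10 genes rose in HL1002P and 8 in HH, and without those over 400 CPM in mammary markers, 10 and 7.

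Genes that work beside these 10 were counted from lists chosen with earlier results of these data known. The counts are set against the same 17.3% and 12.3% of all genes that rose in HL1002P and HH, and 14.5% and 8.59% that fell. Of 15 T cell receptor signalling genes, 15 rose in HL1002P fat (median log2 fold change 1.91) and 13 in HH fat (1.63). Lat, the adaptor that Zap70 phosphorylates, rose by 1.96 ± 0.39 in HL1002P and 1.79 ± 0.38 in HH, and Lcp2, the adaptor SLP-76 that works with it, by 1.34 ± 0.27 and 1.11 ± 0.27. Of 10 genes of naive and recirculating T cells, 8 rose in each mutant (medians 2.03 in HL1002P and 1.84 in HH). These include Ccr7, the chemokine receptor that guides T cells into lymph nodes (2.32 ± 0.56 in HL1002P, 2.14 ± 0.55 in HH) and the transcription factor Tcf7 (2.25 ± 0.54 and 2.01 ± 0.53). S1pr1, the receptor for leaving lymph nodes, which endothelium also carries, was at 0.33 ± 0.20 and 0.063 ± 0.20 and passed in neither. B cells share Ccr7.

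The lists of T cell classes were less uniform. Of 13 helper genes, 6 rose and 1 fell in HL1002P, and 6 rose in HH (medians 1.32 and 0.72): Icos, a co-stimulator of follicular helper cells, rose by 2.33 ± 0.42 in HL1002P and 2.04 ± 0.42 in HH, and Cxcr5, the follicle-homing receptor that B cells also carry, by 2.96 ± 0.65 and 2.17 ± 0.63. Zbtb7b, the factor that sets the CD4 lineage and is also made outside T cells, fell by 0.66 ± 0.20 in HL1002P (adjusted p = 0.0312) and was at -0.45 ± 0.20 in HH (adjusted p = 0.124). Of 15 cytotoxic genes, 11 rose in HL1002P and 8 in HH (medians 1.34 and 1.11), among them Runx3, the factor of the CD8 lineage (2.17 ± 0.36 and 2.13 ± 0.36), Nkg7 (1.34 ± 0.27 and 1.11 ± 0.27) and the chemokine Ccl5 (1.34 ± 0.29 and 1.25 ± 0.29).

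Of 14 genes of regulatory T cells, 8 rose and 1 fell in HL1002P, and 7 rose and 1 fell in HH (medians 1.18 and 1.07). Ctla4, an inhibitory receptor, rose by 2.42 ± 0.53 in HL1002P and 2.13 ± 0.52 in HH, and Il2ra, the high-affinity IL-2 receptor chain, by 1.2 ± 0.145 and 0.97 ± 0.145. Tnfrsf18, which encodes GITR, rose by 1.41 ± 0.27 in HL1002P and 1.17 ± 0.27 in HH. Lrrc32, which anchors latent TGF-beta and is also made by endothelium and platelets, fell by 0.65 ± 0.22 in HL1002P (adjusted p = 0.0407) and was at -0.62 ± 0.22 in HH (adjusted p = 0.0587). Il1rl1, the IL-33 receptor carried by many regulatory T cells of mouse fat, was at 0.54 ± 0.30 in HL1002P (adjusted p = 0.170). In HH it was at -0.29 ± 0.30 (adjusted p = 0.483). Klrg1, another such marker, was at -0.45 ± 0.30 in HL1002P (adjusted p = 0.253) and fell by 1.11 ± 0.30 in HH (adjusted p = 0.0277). Other genes of the list went either way. Il10 averaged 3.07 CPM in HL1002P, 3.23 CPM in HH and 0.329 CPM in WT. Ccr8 averaged 1.75, 2.15 and 0.772 CPM in the same order. Areg was lower in the mutants, at 4.16, 2.87 and 17.2 CPM, with 0.089 to 58.4 CPM over WT libraries. The genes from Il1rl1 to Areg were singled out after their values were seen. Of 5 gamma-delta and innate T cell genes, 1 rose and 1 fell in HL1002P and 1 rose in HH; the riser in both was Blk (2.66 ± 0.60 and 2.26 ± 0.59), a kinase that B cells also carry.

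Markers of other cell types moved with the T cell genes. All 10 B cell genes rose in HL1002P fat and 9 in HH fat, with medians of 3.02 and 2.72 on the log2 scale, and summed to 1234, 3354 and 3551 CPM (lowest, median, highest) in HL1002P, 1639, 1936 and 3182 CPM in HH, and 36.0, 374.4 and 624.3 CPM in WT. Of 8 tested genes of lymph node stroma, 7 rose in HL1002P and 6 in HH, summing to 629.7, 835.0 and 931.4 CPM in HL1002P, 634.1, 772.0 and 886.7 CPM in HH, and 22.9, 219.3 and 307.2 CPM in WT, with Ccl21a at 0 counts in all 12 libraries. Some fat pads of the mouse hold lymph nodes, and Cxcl13, the chemokine of their B cell follicles, rose by 3.26 ± 0.78 in HL1002P and 3.13 ± 0.77 in HH. The part of lymph node tissue in the T cell gene levels was not tested. WT replicate 1, the lowest library for the T cell genes, was also lowest in the sums of both lists.

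Other immune lists moved less. Dendritic markers summed to 145.2, 191.0 and 225.3 CPM in HL1002P, 140.4, 200.9 and 273.5 CPM in HH, and 103.6, 110.4 and 130.9 CPM in WT. Macrophage markers had medians of 0.032 and 0.54 on the log2 scale in HL1002P and HH, with 0 of 9 past edgeR's test in either. NK cell markers, of which Klra8 and Klra4 had 0 counts in all 12 libraries, summed to no more than 17.2 CPM in HL1002P, 13.9 CPM in HH and 10.9 CPM in WT, and 0 of 6 tested passed edgeR's test in either. Of 10 fat cell genes, 4 fell in HL1002P, where 14.5% of all genes fell, and 1 rose in HH, with medians of -1.08 and -0.71. Of 7 mammary epithelium genes tested, 0 passed edgeR's test in either mutant.

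**Figure D5:**
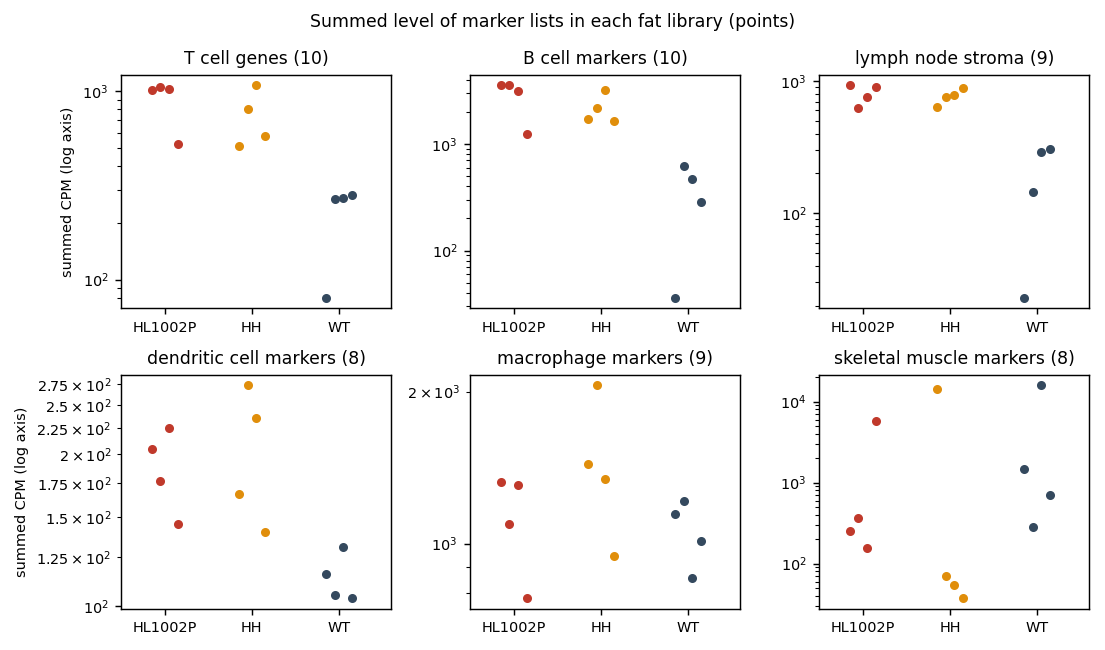
Summed level of the T cell genes and of 5 marker lists in the 12 fat libraries, in CPM on log axes, with points for HL1002P, HH and WT libraries. T cell, B cell, lymph node stroma and dendritic cell sums are higher in every HL1002P and HH library than in any WT library, while macrophage and skeletal muscle sums overlap, the last being over 5000 CPM in 1 library of each genotype.

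Of the T cell genes, Cd3e alone was set against all leukocytes within a library. In HH fat its log2 fold change, 1.93, was above the 1.10 of Cd3d and the 0.79 of Cd3g. Ratios of the other T cell genes to all leukocytes were not tested. The log2 ratio of Cd3e to Ptprc, the pan-leukocyte gene of CD45, averaged -3.92 in HL1002P, -3.73 in HH and -3.88 in WT, and neither mutant's ratio differed from WT past the threshold (exact permutation p = 0.800 for HL1002P and 0.343 for HH).

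HL1002P and HH fat could not be separated by any of the 10 genes. Their log2 fold changes between the mutants ran from -0.094 for Cd4 to 0.83 for Cd3g. Of the 10, edgeR called 0, where it called 0 of 16266 genes, and DESeq2 called 0, where it called 22 of 20010. In the edgeR test 0 had an unadjusted p under 0.05, beside 3.29% of all genes. The counts for the 10 genes are near these shares. With SEs of 0.34 to 0.47 on the log2 scale, even the 0.83 of Cd3g, about 2 SE, was not resolved (unadjusted p = 0.0725). None of the tested ratios differed between the mutants past the threshold either, the smallest exact permutation p being 0.0857 for Foxp3 to Cd4 (adjusted p = 0.286). Cd3d to Cd3e and Cd3g to Cd3e, lower in every HH library than in every HL1002P library, were chosen after the values were seen and have no test.

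In muscle the T cell genes were scarce. They summed to 2.01 to 7.42 CPM in HL1002P, 1.98 to 6.07 CPM in HH and 1.24 to 4.65 CPM in WT, and Cd8a and Cd8b1 were too low to test, with 15 and 28 counts over all HL1002P libraries, 25 and 6 over HH and 14 and 12 over WT. Cd3e was at 0.518, 0.948, 1.26 and 1.27 CPM in HL1002P muscle, 0.372, 1.25 and 1.13 CPM in HH muscle, and 0.907, 0.749, 0.934 and 0.674 CPM in WT muscle, so that the WT range lay inside those of both mutants. Cd2 was at 0.662, 0.180, 0.887 and 1.75 CPM in HL1002P muscle, 0.605, 0.457 and 1.36 CPM in HH muscle, and 0.221, 0.104, 0.0519 and 0.674 CPM in WT muscle. The groups overlapped. Its log2 fold change was 1.73 ± 0.76 in HL1002P (unadjusted p = 0.0423, adjusted p = 0.462) and 1.62 ± 0.81 in HH (unadjusted p = 0.0675, adjusted p = 0.339). Of the 8 genes tested by edgeR, 0 passed in any comparison, where 0.117% of all genes passed in HL1002P against WT, 0.377% in HH against WT and 0.0206% in HL1002P against HH. At an unadjusted p under 0.05 the counts were 1, 0 and 0, beside 10.5%, 16.6% and 4.6% of all genes. DESeq2 called 0 of 10 in each, where it called 180, 625 and 40 of 16002 genes.

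Cd3e was less scarce in muscle than its partners: it had 184 counts in HL1002P, 131 in HH and 149 in WT, while Cd3d had 26, 21 and 20 and Cd3g had 54, 19 and 26. In fat Cd3e had the fewest counts of the 3 in each genotype, though in HH they were close, at 6389 for Cd3e, 6561 for Cd3d and 6717 for Cd3g. The fit for a difference between tissues held all 10 genes, but Cd8a and Cd8b1 passed its filter through their fat levels alone and none of the 10 averaged 1 CPM in each tissue. The HL1002P effect on Cd3e was larger in fat than in muscle, by 1.75 ± 0.55 on the log2 scale (interaction in 1 edgeR fit of 23 libraries, adjusted p = 0.0455), and it was the 1 member past this test, where 5.6% of all genes had a larger effect in fat. That call was kept in 3 of 16 fits that left out 1 library. For HH the difference for Cd3e was 1.77 (adjusted p = 0.0796), and edgeR called 0 of 10 genes higher, where it called 1.98% of all genes higher. DESeq2 called 1 of them, among 1717 of 15661 genes called in either direction, and 2 had an unadjusted p under 0.05, as did 23.5% of all genes.

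Among the 5 genes nearest in pattern to each of Cd3e, Cd8a, Cd4 and Foxp3 over the 12 fat libraries, by root mean square distance of centred log2 levels among 13454 genes, Cd3e had Chst10 (0.124), Fam78a (0.140), Bcl11b (0.146) and Lat (0.152), beside a median distance of 1.14. Cd8a had Satb1 (0.119), Skap1 (0.141), Orai2 (0.152) and Slc38a1 (0.153). Cd4 had Acap1 (0.170), Rasal3 (0.172) and Rltpr (0.188), and Foxp3 was nearest to Hmha1 (0.134), Itgb7 (0.143), Relt (0.146), Aim2 (0.154) and Unc13d (0.162). Among the 10 genes, Cd3e lay at 0.130 from Lck, 0.133 from Cd5 and 0.163 from Cd8a, but at 0.369 from Cd3d and 0.47 from Cd3g, its partners in the receptor.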

How the data were processed

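Polyadenylated RNA of 23 libraries was measured, prepared with a TruSeq RNA v2 kit that does not keep the strand, per the labels' protocols. The authors deposited raw read counts per gene in 1 table, not normalized. The submitters' processing notes name TopHat2 2.0.14, Bowtie2 2.2.6, the mm10 build and featureCounts 1.4.6 (Subread); annotation, strand setting and handling of shared reads are not given in the sources used here. All values were whole numbers, and totals were 22.6 to 58.8 M counts. Reads carry no molecular identifiers, so depth gives counting error only.

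From these counts, CPM were computed on TMM-scaled library sizes, and genes were tested with edgeR 4.0.16 in R 4.3.3 (filterByExpr by genotype, quasi-likelihood F tests over all libraries of a tissue, Benjamini-Hochberg over all tested genes, called under 0.05). Tissue differences were interactions over 23 libraries, treated as independent. Ratios of CPM with 0.1 CPM added were tested over libraries by 2-sided exact permutation, adjusted over 6 ratios a comparison, 1 of which, like some genes the naming rule picks, is not reported here. The script was tested on simulated counts. No 2 libraries of a group agreed within sampling noise. Same-numbered muscle HL1002P and HH libraries deviated together (r = 0.288, 0.363 and 0.271), so those numbers were taken as pairs from the data, not the labels; with the block 0 members were called there, as without. In other comparisons not every pair exceeded 0.1. Alternatives were RLE size factors, no count filter, DESeq2 1.42.0, a replicate block, an Xist covariate, fits of the compared groups only, each library left out, and, chosen after seeing the data, leaving out libraries high in skeletal muscle markers, mammary markers or Xist.

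The members and gene lists were chosen with earlier results of these data known. Named genes were the 10 members, the 4 most abundant tested genes of each T cell list, the 2 most abundant of each other list, and the 5 nearest in pattern to Cd3e, Cd4, Cd8a and Foxp3; others are said to be chosen after their values were seen, or stand in a ratio or check.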

Additional observations from a re-analysis of the deposited data

Results flagged for a closer look

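Of 68 groups of 4 libraries examined, 7 held a library far from the other 3, where chance gives about 1 in 20. The groups are not independent, because the genes varied together over the libraries and the ratios use the same genes. The 2 shares therefore cannot be compared as a test. WT fat replicate 1 was the low library in 4 of them: Cd3e was at 4.32 CPM there, Cd4 at 9.41 CPM, Lck at 16.6 CPM, and the log2 ratio of Cd3e to Ptprc at -4.17. HL1002P fat replicate 4 was low for Lck, at 102 CPM, and for the log2 ratio of Cd4 to Cd3e, at 1.04. In WT muscle, replicate 4 was high for Lck, at 0.814 CPM. The HL1002P effect on Cd3e was larger in fat than in muscle by 1.75 on the log2 scale in an interaction test (edgeR, adjusted p = 0.0455).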

How the results depend on the processing

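In HL1002P fat against WT, 10 T cell genes rose under every alternative that kept all libraries and under the 3 that left out a set of libraries, and 9 to 10 did when 1 library was left out, Cd3g being lost without HL1002P replicate 1 or 2. In HH fat against WT the count was 8, with 7 to 9 under the other settings and 5 to 8 with 1 library left out. With the replicate block it was 10 and 7, but not every pair of same-numbered fat libraries deviated together. Over all genes, calls numbered 5167 in HL1002P and 3391 in HH, 2023 to 7018 and 829 to 4170 with 1 library left out; in HH they were 5152 by DESeq2, 5505 without the libraries high in skeletal muscle markers and 6246 without those with Xist. In the tissue interaction, 0 to 1 member passed for HL1002P and 0 to 1 for HH with 1 library left out, and 1 passed for HH by DESeq2; a filter of at least 1 CPM in each tissue left no member to test. The HH ratios kept their direction with 1 library left out: Cd4 to Cd8a 0.71 to 0.95, Cd4 to Cd3e 0.44 to 0.68, Cd8a to Cd3e -0.36 to -0.27 and Foxp3 to Cd4 -0.76 to -0.47. As differences within replicate numbers (replicate block) they were 0.85, 0.55, -0.31 and -0.62, each at an adjusted p = 0.150 (exact permutation; 4 pairs cannot go below 0.125 unadjusted). Without the libraries high in skeletal muscle markers they were 0.80, 0.48, -0.32 and -0.63, with too few libraries to pass. Gata3 in HL1002P and HH fat was at -0.75 and -0.92 and not past the test, at 1.88 and 1.73 (adjusted p = 0.00882 and 0.0258) without the libraries high in mammary markers, and in HH at 2.77 (adjusted p = 0.0232) without those with Xist; the cause was not tested.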

Other observations

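Effector genes of the T cell lists, singled out after their values were seen, differed among themselves in fat. Prf1, the pore-forming protein of cytotoxic cells, had log2 fold changes of 1.75 ± 0.32 in HL1002P and 1.32 ± 0.32 in HH, and Eomes of 2.0 ± 0.27 and 1.61 ± 0.27 (edgeR adjusted p = 0.00779 and 0.0195 for Prf1, 0.00775 and 0.0113 for Eomes). Gzmb was at 4.76 ± 1.23 CPM in HL1002P, 3.89 ± 1.19 CPM in HH and 5.07 ± 1.29 CPM in WT (SD, n = 4 each), and Ifng at 0.859 ± 0.290, 0.735 ± 0.199 and 0.715 ± 0.443 CPM, with neither past the test. Il21, a cytokine of follicular helper cells, was at 2.47 ± 1.65 CPM in HL1002P, 1.38 ± 0.42 CPM in HH and 0.160 ± 0.171 CPM in WT, and rose in both mutants (adjusted p = 0.00915 and 0.0232).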
